A study of Mus musculus with 6 samples.

Results

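The genes described here are 6 members of the intermediate filament family that were read in RNA precipitated with LARP1 from mouse dorsal root ganglia (DRG). They are the neurofilament light, medium and heavy chains (Nefl, Nefm and Nefh), peripherin (Prph), alpha-internexin (Ina) and vimentin (Vim). They were taken by their Ensembl identifiers, with earlier results of these data known, and all 6 were found among the 16976 identifiers of the count table; 0 were absent. Ganglia hold the cell bodies of sensory neurons together with glia, fibroblasts, vessels and immune cells. The injured group came from wild-type mice after sciatic nerve injury and the uninjured group from wild-type mice without it, with 3 libraries each. The time after injury and the age and sex of the mice are not stated in the labels, and nothing says that the libraries of a group came from separate animals. The injured libraries held 211337 to 211879 counts and the uninjured libraries 116186 to 116608.

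Intermediate filaments are rope-like polymers that give a cell mechanical strength. In axons of vertebrate neurons, the neurofilament light chain forms the core with the medium and heavy chains, whose long phosphorylated tails project sideways, and the packed filaments set the calibre of large myelinated axons. Peripherin is the neuronal filament typical of peripheral neurons and is used as a marker of small sensory neurons, while the heavy chain is used as a marker of large myelinated ones. Alpha-internexin co-assembles with neurofilaments and is best known from the central nervous system. Vimentin is the filament of fibroblasts, endothelium, macrophages and many glia, and has been described in injured axons. LARP1 binds the cap and the adjoining pyrimidine stretch of TOP mRNAs, a class of messages that encode much of the translation machinery.

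The RefSeq bases around the annotated start of a transcript are shown because the position next to the cap is where LARP1 recognises TOP mRNAs. The table used (build GRCm38.p6) held a window for 3 of the 6 members, Prph, Ina and Vim. Each line gives 10 bases before and 20 bases from the start on the plus strand, with the first 5 transcribed bases in capitals.
Prph, chr15:99055164-99055193: tctgcagctcCTTGCcacccggcctagttc
Ina, chr19:47014671-47014700: gccccgccgcACCCAgccttgccgcacctt
Vim, chr2:13574301-13574330: ttgtccagtcCTCTGccactcttgctccgg
A start was counted as TOP-like when C was followed by at least 4 bases that were C or T, which held for 823 of 32851 windows in the table (2.51%) and for 0 of these 3. The unbroken run of C or T from the start was 4 bases in Vim, 3 in Prph and 0 in Ina. The Vim and Prph starts began with C, as did 16.3% of all windows. These letters describe 1 annotated start per gene, not the starts used in these ganglia.

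Within a group, the variance between libraries was close to counting noise, at a mean of 1.12 times that noise over 6152 genes in the injured group and 1.16 times over 3827 genes in the uninjured group. They were therefore summed and counted as 1 sample per group. Levels are CPM, a gene's counts per 1000000 counts of its group or library, ratios are injured over uninjured, and their 95% exact intervals cover counting error only. The differences have no replicate check between animals, and injury cannot be told apart from a shared preparation of each group's libraries. No input RNA was analysed here, so a level combines how much of an mRNA the ganglion held with how much of it LARP1 retained. Fewer cells of a type and less RNA per cell cannot be told apart. Of the lists that mark sensory neurons, only Prph and Nefh could be read, because symbols came with the members alone. Both had counts in all 6 libraries, but as members they are no separate evidence on cell types.

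The ratios of Nefl, Nefh and Prph each lay within 1.25-fold of no difference, although the interval of Nefh reached 1.44. Nefm was lower, at a ratio of 0.79, with a counting interval that left out no difference, but its own libraries disagreed by more than counting error. Vim was higher with an interval that included no difference, and Ina had too few counts to show one. The 5 neuronal genes together made up 0.307% of the injured and 0.327% of the uninjured counts, a ratio of 0.94 (0.87 to 1.01), in a sum of which Prph and Nefl supply most counts. The injured libraries of that sum, at 2999 to 3184 CPM, all lay below the uninjured ones, at 3209 to 3391 CPM. Taken singly, all 6 genes had injured and uninjured libraries that overlapped. Libraries did not overlap for 52.0% of the 3455 genes that averaged 50 CPM or more over both groups. A ratio past 1.5-fold in either direction was seen for 1 of the 6 genes, Vim at 1.51, and for 50.2% of those 3455 genes, with 27.6% higher. All members but Ina were among the 3455.

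**Figure D1:**
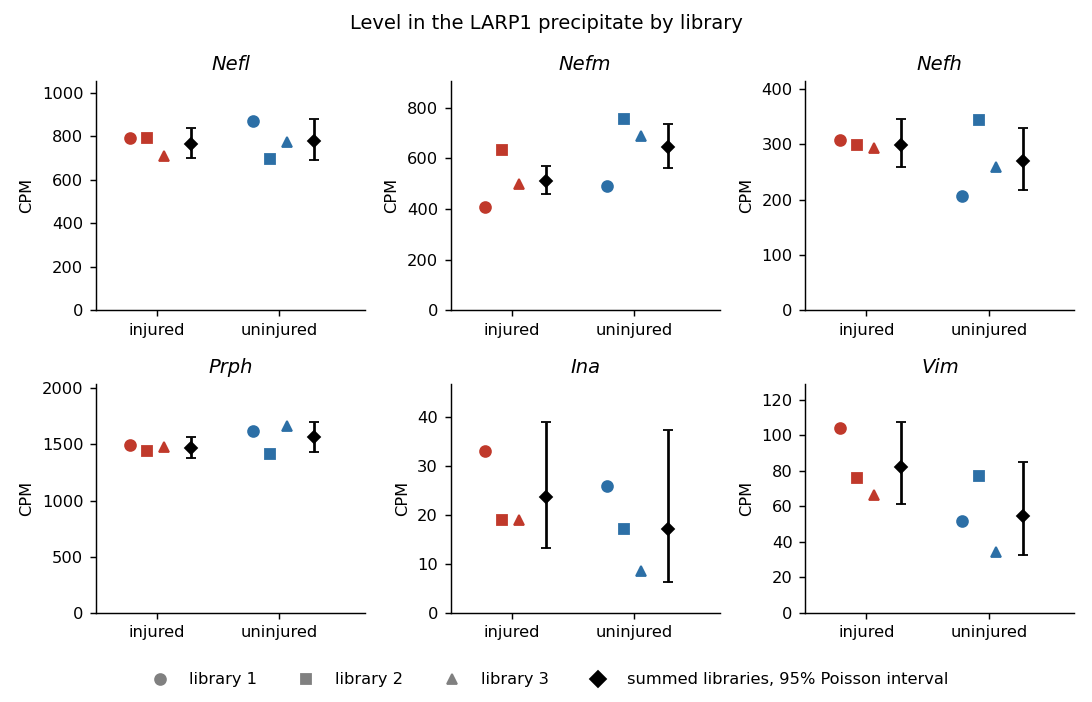
Level of each gene in CPM (vertical axis, from 0) in the 3 injured and the 3 uninjured libraries; circles, squares and triangles are libraries 1, 2 and 3, and black diamonds are the summed libraries with 95% exact Poisson intervals. The groups overlap in every panel, and Nefm has its lowest value in library 1 and its highest in library 2 of both groups.

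Nefl (ENSMUSG00000022055), the light chain on which the other neurofilament chains depend for assembly, had 793, 790 and 710 CPM in the injured libraries, against 869, 695 and 775 CPM in the uninjured libraries. The uninjured libraries enclosed all the injured ones. Summed, Nefl stood at 764 CPM with injury (698 to 835) and 779 CPM without (689 to 878), a ratio of 0.98 (0.84 to 1.14). Of the 3455 genes, 2.69% had a ratio closer to 1. The interval leaves out a loss or gain of 1.5-fold or more on this scale.

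Nefm (ENSMUSG00000022054), the medium chain, had 406, 634 and 497 CPM in the injured libraries, against 490, 755 and 689 CPM in the uninjured libraries. Injured libraries 2 and 3 exceeded uninjured library 1, so the groups overlapped, although every injured library was below the summed uninjured level. The summed levels were 512 CPM with injury (458 to 571) and 645 CPM without (563 to 735), a ratio of 0.79 (0.67 to 0.95). Nefm was the single member whose counting interval left out 1, as it did for 51.0% of the 3455 genes. Counting error understates the spread of this gene. The variance between its libraries was 5.45 times counting noise in the injured group, a value reached by 1.30% of genes there, and 3.41 times in the uninjured group, reached by 4.76%. The ratio without 1 library at a time ran between 0.70 and 0.88, and its interval included 1 without the first injured library (0.88, 0.73 to 1.06), the second uninjured (0.87, 0.71 to 1.07) or the third uninjured library (0.82, 0.67 to 1.01).

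Nefh (ENSMUSG00000020396), the heavy chain with the longest tail, had 307, 298 and 293 CPM in the injured libraries, against 206, 343 and 258 CPM in the uninjured libraries. The injured libraries fell between the uninjured ones, which spread more widely. The summed levels were 299 CPM with injury (258 to 345) and 269 CPM without (218 to 330), a ratio of 1.11 (0.86 to 1.44). It was 1.00 without the first uninjured library and 1.29 without the second.

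Prph (ENSMUSG00000023484), the filament of peripheral neurons and the member with the most counts, gave the narrowest estimate. It had 1491, 1443 and 1481 CPM in the injured libraries, against 1617, 1415 and 1661 CPM in the uninjured libraries. The second uninjured library was the lowest of all 6. Summed from 934 injured and 546 uninjured counts, its levels were 1472 CPM with injury (1379 to 1569) and 1564 CPM without (1436 to 1701). The ratio was 0.94 (0.85 to 1.05). Without 1 library at a time it ran between 0.90, without the second uninjured library (0.80 to 1.01), and 0.97, without the third (0.86 to 1.10). With TMM library sizes and all 6 libraries, the ratio of Prph was 0.894.

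Ina (ENSMUSG00000034336) was near the limit of detection. The injured libraries gave 7, 4 and 4 counts and the uninjured libraries 3, 2 and 1, that is 23.6 CPM (13.2 to 39.0) and 17.2 CPM (6.31 to 37.4). With 21 counts in all, the ratio of 1.37 had an interval of 0.50 to 4.33, and a difference was not detectable at this depth.

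Vim (ENSMUSG00000026728), the filament of non-neuronal cells in the ganglion, had 104, 75.7 and 66.2 CPM in the injured libraries, against 51.6, 77.2 and 34.4 CPM in the uninjured libraries. The second uninjured library lay above 2 of the injured ones. The summed levels were 81.9 CPM with injury (61.2 to 107) and 54.4 CPM without (32.8 to 85.0). These rest on 52 injured and 19 uninjured counts, and the ratio of 1.51 (0.88 to 2.70) was not distinguishable from 1. It was 1.43 with TMM library sizes and thus not past 1.5-fold on that scale. It was also under 1.5-fold without the first injured (1.30), the first uninjured (1.47) or the third uninjured library (1.27), and 1.90 without the second uninjured library. Markers of glia, fibroblasts and macrophages could not be read by symbol, so their part in the level of Vim was not tested.

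**Figure D2:**
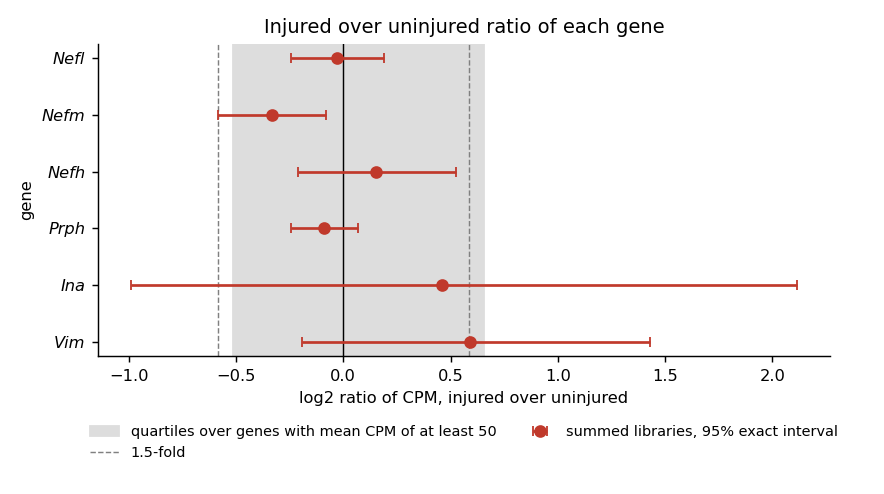
Ratio of CPM, injured over uninjured, on a log2 scale (horizontal axis) for each gene, with 95% exact intervals of the summed counts; the grey band spans the quartiles of the 3455 genes averaging 50 CPM or more, from -0.52 to 0.65, and dashed lines mark 1.5-fold. All 6 points lie inside the band, and the interval of Nefm alone stays on one side of 0.

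Set against the 3455 genes, the members' ratios lay inside the quartiles of the distribution. Nefl, Prph and Nefh were near its middle. Nefm lay above 32.0% of genes, Ina above 67.8% and Vim above 72.7%. Over the 5 members averaging 50 CPM or more, the median size of the log2 ratio, whatever its sign, was 0.15, and over all 3455 genes it was 0.59. The median signed log2 ratio was -0.03 for these members and 0.04 for all genes. Low counts widen ratios, so the comparison was repeated, after the data were seen, with the 706 genes that averaged at least 250 CPM, among which were Nefl, Nefm, Nefh and Prph. Of these genes, 45.3% were past 1.5-fold, as were 0 of the 4 members. A ratio within 1.25-fold, a limit that was not planned, was found for 34.4% of the 706 genes and for 3 of the 4 members. Nefm, at 0.794, fell just outside that limit. In this class 2.97% of genes had a ratio closer to 1 than Nefl, 9.35% than Prph, 16.3% than Nefh and 35.3% than Nefm. With 4 to 6 genes, these counts describe the members and do not set them apart from other genes.

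**Figure D3:**
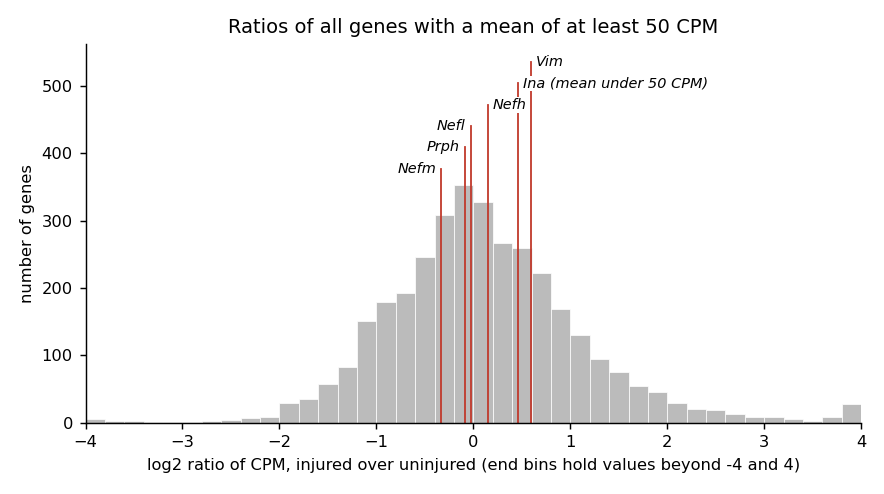
Number of genes (vertical axis) by log2 ratio of CPM, injured over uninjured (horizontal axis), for the 3455 genes averaging 50 CPM or more, with the 6 genes marked by red lines whose height has no meaning. Nefm, Prph, Nefl and Nefh fall in the central peak, and Ina and Vim on its right slope.

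The reads of the 6 libraries were also compared with edgeR's quasi-likelihood test, which here compares the reads of 2 samples and not the conditions. It called 47.0% of 3158 genes at a Benjamini-Hochberg threshold of 0.05, of which 22.1% of the tested genes were lower in the injured reads. Ina did not pass its filter on low counts. Of the 5 members tested, 1 was called, Nefm, at a log2 fold change of -0.41 on the test's TMM scale, which lies 0.07 below that of CPM. At an unadjusted p under 0.05 there were 2 of these 5, Nefm and Prph, and 1686 of the 3158 genes tested. The call of Nefm was lost when column totals replaced the TMM factors, and it was present in 2 of 6 fits that each left out 1 library, those without the second injured or the first uninjured library. Without a filter, edgeR called 11.6% of 13236 genes, and Nefm, at a ratio of 0.82, was not among them. Prph was called, as lower, in 1 of the 6 fits that each left out 1 library, that without the second uninjured library. Those 6 fits called 36.2% to 47.4% of the genes they tested. DESeq2 tested all 6 members and called 0, with 0 at an unadjusted p under 0.05, where it called 16.2% of 8618 genes. Of the 13236 genes with a count, all of which entered the DESeq2 fit, 2600 had an unadjusted DESeq2 p under 0.05.

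The 3 neurofilament chains form a polymer together, and their shares of the summed Nefl, Nefm and Nefh counts do not depend on how the libraries are scaled. Counts were not divided by transcript length, so a share is a share of counts and is read between groups, not between genes. Nefm held 32.5% of 1000 triplet counts with injury (95% Clopper-Pearson interval 29.6% to 35.5%) and 38.1% of 591 without (34.1% to 42.1%), an odds ratio of 0.78 (0.63 to 0.97). The library shares of Nefm were 27.0%, 36.8% and 33.1% with injury and 31.3%, 42.1% and 40.0% without. They overlapped between the groups. The interval of the odds ratio left out 1 in 3 of the 6 calculations that each left out 1 library, which gave 0.69 to 0.88.

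**Figure D4:**
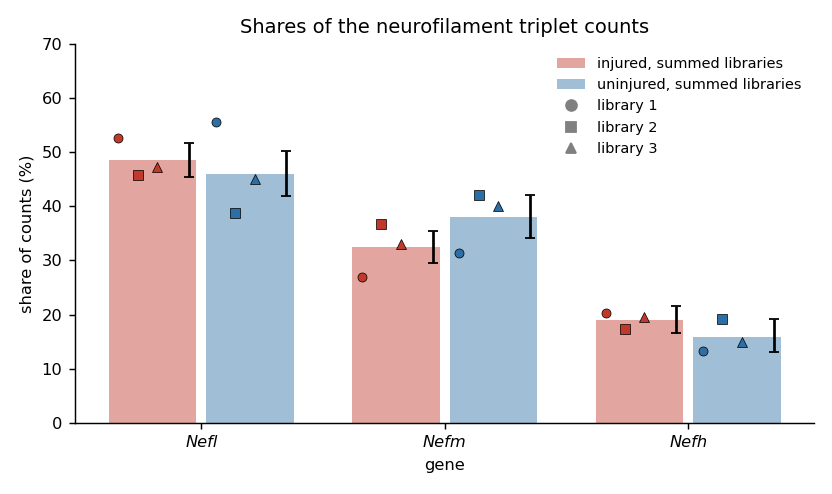
Share of the summed Nefl, Nefm and Nefh counts held by each gene (vertical axis, percent); bars are the summed libraries with 95% Clopper-Pearson intervals, and circles, squares and triangles are libraries 1, 2 and 3. Nefm has the lower bar in the injured group, at 32.5% against 38.1% in the uninjured group, with overlapping library points.

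For the other 2 chains, the interval of the odds ratio included 1. Shares of the triplet add up to the whole, so theirs are not independent of the share of Nefm. Nefh held 19.0% of the triplet counts with injury (16.6% to 21.6%) and 15.9% without (13.0% to 19.1%), an odds ratio of 1.24 (0.94 to 1.65). Nefl held 48.5% with injury (45.4% to 51.6%) and 46.0% without (41.9% to 50.1%), an odds ratio of 1.10 (0.90 to 1.36). Among all 6 members, Prph held 46.7% of 2001 counts with injury and 47.0% of 1162 without, an odds ratio of 0.99 (0.85 to 1.14). Vim held 2.60% with injury and 1.64% without, an odds ratio of 1.60 (0.93 to 2.89). Of 14 such shares computed, over the triplet, the 5 neuronal members and all 6, the intervals that left out 1 were the 3 of Nefm, which share the same counts.

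Nefm and Nefl are neighbouring protein-coding genes on chromosome 14, and their reads varied differently between libraries. The number of Nefm counts per Nefl count was 0.512, 0.802 and 0.700 in the injured libraries, 0.670 when summed. In the uninjured libraries it was 0.564, 1.09 and 0.889, and 0.827 when summed. In each group the first library had the lowest and the second the highest value. The span within either group exceeded the difference between the summed groups. Between libraries of the same number, the injured value was always the lower, but whether equal numbers are pairs is not known. In the RefSeq table Nefm overlaps the long noncoding RNA gene A230070E04Rik, Nefh overlaps Gm35321 and Ap1b1, and Ina overlaps Nt5c2. Use of strand in the counting is not given in the sources used here, so reads of overlapping genes could be shared. Nefl, Prph and Vim overlap no other gene in that table.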

How the data were processed

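RNA precipitated with LARP1 from wild-type mouse DRG was sequenced from nanopore cDNA-PCR barcoding libraries, per the labels' protocols. The authors deposited estimated counts, without normalization, for Ensembl gene identifiers; minimap2, Salmon and the build GRCm39 (mm39) are named per the submitters' processing notes, with versions and parameters not given in the sources used here. All values were whole, 0 rows named no gene and 0 columns were unused. Columns were matched to samples by library name.

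Counts of the 3 libraries of a group were summed, giving 634615 injured and 349027 uninjured counts. Agreement of libraries was the chi-square of genes with at least 15 counts over its degrees of freedom. Levels have exact Poisson intervals, and ratios and shares exact Clopper-Pearson intervals (odds ratios: exact conditional), all 95% (scipy 1.17.1). PCR reads without molecular identifiers are not independent molecules. edgeR 4.0.16 (TMM, filterByExpr) and DESeq2 1.42.0 were fitted to the whole table in R 4.3.3, and the fit was tested on simulated data.

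All 6 members were named by rule; the members and lists were chosen with earlier results of these data known. Lists of filament partners and cell type markers were not analysed here, since 0 identifiers matched the gene table. Member symbols came with their identifiers. RefSeq tables (GRCm38.p6) gave starts and neighbours by symbol.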

Additional observations from a re-analysis of the deposited data

How the results depend on the processing

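All 64 alternative values of the 6 members' ratios of CPM stayed inside the 95% interval of the value reported, as did the 84 odds ratios of shares without 1 library. Most of the same counts underlie each alternative and the reported value, so staying inside was likely beforehand. Settings of the 64 were TMM or DESeq2 size factors, filtered edgeR with or without replicate block, the DESeq2 fit and leaving out each library. The filtered edgeR fits gave no value for Ina. The edgeR fits that left out 1 library were not among the 64. In them Nefm came to 0.667 without the first uninjured library, under its interval's lower end of 0.668. Prph came to 0.844 without the second uninjured library, under its lower end of 0.846. The count of members past 1.5-fold was 1, and it was 0 with TMM sizes, the edgeR fit or the edgeR fit with replicate block, where Vim came to 1.43, 1.42 and 1.43; 0 members were past 2-fold. Leaving out 1 library gave 0 to 2 members past 1.5-fold: 0 without the first injured or the third uninjured library, where Vim came to 1.30 and 1.27, and 2 without the second or the third injured library, where Ina came to 1.51 in either case. Without the first uninjured library the gene past 1.5-fold was Ina, at 1.83, and not Vim, at 1.47. The replicate block kept Nefm as the single member called of 5 and gave 1426 calls among all genes, against 1485 without it. The edgeR adjusted p of Nefm was 0.00923 with the block and 0.0337 without it. Over 2976 genes, libraries with the same number had deviations that correlated at 0.0389, -0.00625 and -0.0506. Of the injured libraries, 1 of 3 correlated best with its own number. Variance between libraries was close to counting noise, so these correlations could say little on whether equal numbers are pairs. The main fit did not take the numbers as pairs. Counts of all genes called ran from 1220 to 1577 without 1 library. With a minimum mean of 10 CPM, 61.7% of 8678 genes were past 1.5-fold. Depth limits Vim and Ina most, with 71 and 21 counts in all.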
